A study of Mus musculus with 4 samples.

Results

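Histones are the proteins that package DNA into nucleosomes, and the genes examined here are the 73 mouse histone genes, of 50600 annotated genes, whose symbols begin with Hist1h, Hist2h, Hist3h, Hist4h, H2af or H3f3, that are annotated as protein-coding and that lie on an autosome. They were split by symbol alone into 65 genes taken as replication-dependent, with Hist symbols, and 8 variant genes, H2afj, H2afv, H2afx, H2afy, H2afy2, H2afz, H3f3a and H3f3b. How each gene is regulated was not checked. The rule uses names and annotation, not measured values. Counts came from RNA libraries of primary T-helper 2 (Th2) cells of mouse strain C57BL/6NJ, a subset of CD4 T cells that makes interleukins 4, 5 and 13. All 4 libraries belong to a single group numbered as biological replicates 1 to 4, share a donor in the labels, and carry no treatment, genotype or control. The age and developmental stage are given as unknown and sex as not collected, and a time of 72 h in the file headers is left unexplained. The assay is labelled as sequencing of total RNA, whereas the library protocol is named for poly(A)+ RNA, so how RNA without a tail was treated cannot be read from the labels.

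Replication-dependent histone genes are transcribed mainly in S phase, when new DNA has to be packaged. Most of their mRNAs are not polyadenylated. Such mRNAs end just after a short stem-loop that is bound by the stem-loop binding protein, Slbp. They are cut by a machinery built around the U7 small nuclear RNA. Variant histones are made throughout the cell cycle from ordinary polyadenylated mRNAs, often with introns, and replace the standard histones at particular places in chromatin. H2afx is a known hybrid, since its gene can give both a stem-loop mRNA and a polyadenylated one.

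Replicates 1, 3 and 4 held 2388255, 1929880 and 1713199 counts over all genes. Replicate 2 held 5016 and had 0 counts in all 73 histone genes, so every value below rests on replicates 1, 3 and 4 unless stated. The floor of 3 counts stood at 1.26 to 1.75 CPM (counts scaled to library size) in those libraries and at 598.09 CPM in replicate 2. Markers were checked against the labelled cell type, in TPM, a level scaled to library size and exonic length. All 7 helper T cell genes and all 5 Th2 genes tested lay above 1 TPM, against 43.1% of all genes tested. Of these markers, Cd3e, Gata3 and Il5 share exons with Gm48719, Gm13256 and Gm12214 on the other strand. The 3 B cell markers had 0 counts, and of the myeloid markers 2 of 3 had none. Over all protein-coding genes, 41.4% had 0 counts. Of the 3 cytotoxic T cell markers, 2 had enough counts to be tested and neither was called. Fragments were counted only on the annotated strand of a gene, per the file headers. RNA from the other strand of a histone locus therefore appears only where another gene is annotated there. The sources used here do not say whether the strand option of the counting, 1, matches the library kit. Own-strand and opposite-strand below mean the strand as counted, and which strand the RNA came from was not tested. A low own-strand count is thus no measure of how much of that mRNA the cells held. Because nothing in the labels says that the replicates came from separate cultures, the p-values measure only how far these samples scatter, and part of that scatter may be technical. In bulk RNA, fewer cells making an mRNA and less of it per cell cannot be told apart.

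The annotated ends of the transcripts were compared first, because the end is what separates the classes in the textbook. A stem-loop was sought on the transcript strand in the first 100 bases after the stop codon of the GENCODE vM21 models. It was taken as a 6-base stem opening with GG and closing with CC, with Watson-Crick or G-T pairs, around a 4-base loop holding 3 or more T. Of the 50 replication-dependent genes with 30 or more annotated bases after the stop codon, 43 held it, in 7 forms, from 21 to 58 bases after the stop codon (median 32). The other 15 replication-dependent models end within 10 bases of the stop codon, so nothing can be read from them. Among protein-coding genes outside the rule with as much annotated sequence, 14 of 20643 (0.0678%) held such a match. H2afx was the only one of the 8 variants with a match. The runs below, from the mm10 transcripts of GENCODE vM21, show the stem and loop in capitals for 1 H1, 1 H2B, 1 H3 and 1 H4 gene with counts and for H2afx.
Hist1h1c, chr13:23739507-23739532, plus strand: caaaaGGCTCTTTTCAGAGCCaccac
Hist3h2ba, chr11:58949344-58949369, plus strand: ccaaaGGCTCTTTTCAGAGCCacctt
Hist1h3f, chr13:23544927-23544952, plus strand: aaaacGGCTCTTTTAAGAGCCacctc
Hist1h4i, chr13:22040961-22040986, minus strand: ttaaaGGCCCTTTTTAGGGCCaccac
H2afx, chr9:44335235-44335260, plus strand: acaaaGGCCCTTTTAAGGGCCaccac

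The first form in these lines, shared by Hist1h1c and Hist3h2ba, was the most frequent, in 24 genes, and the form in H2afx occurred in no other histone gene of the rule. In H2afx it lies 46 bases after the stop codon, within the range of the replication-dependent genes, although the annotated model runs on for 884 bases after the stop. The polyadenylation hexamer AATAAA, searched on the transcript strand alone, was present in the last 50 bases of a transcript in 6 of 8 variants and in 14 of the 50 replication-dependent genes with 30 or more bases after the stop. The share over all protein-coding genes with that much sequence was 68.75%. H2afx and H2afy were the variants without it. A match says only that these letters are in the window, not that the site is used.

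On their own strand as counted, the replication-dependent genes were almost without counts. Of 65 genes, 48 (73.8%) had 0 counts in all 3 libraries, against 41.4% of all protein-coding genes. The class held 21, 11 and 9 counts in replicates 1, 3 and 4, 41 in total, and no gene had more than 7. Its share of all counts was 0.000658% ± 0.000193 (SD, n = 3), and its median TPM was 0 in each library. Counts at this depth limit what can be said: most single values were at or under the 3-count floor, so low expression and none were not distinguishable. Intervals and floors here cover counting error only.

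The linker histone H1 genes, whose products bind the DNA between nucleosomes, were the type with the smallest share at 0, with 3 of 6. Hist1h1c had 4, 3 and 0 counts in replicates 1, 3 and 4, the highest total of the class. Hist1h1d had 1, 0 and 1. Hist1h1a had 1 count in replicate 1 and 0 in the others. Replicate 3 had counts in Hist1h1c alone among the H1 genes.

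Of the 18 H2A genes 13 had no count, and of the 16 H2B genes 12 had none. These encode the proteins that form the H2A-H2B dimers on either face of the nucleosome. Hist2h2aa2 had 0, 4 and 2 counts, and its near-identical partner Hist2h2aa1 had 0, 1 and 1, a split between copies that is uncertain. Both were at 0 in replicate 1, the deepest library. Hist2h2ab had 2 counts in replicate 1 alone, and Hist2h2ac had 0, 1 and 1. Among H2B genes Hist3h2ba had 3 counts, all in replicate 1, Hist1h2bc had 2, 1 and 0, and Hist1h2be and Hist2h2be had 1 count each.

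The core of the nucleosome is a tetramer of H3 and H4. Of the 12 H3 genes 9 had no count, and Hist1h3c (2 counts), Hist1h3f (1) and Hist2h3b (1) were each seen in a single library. Of the 13 H4 genes 11 had no count. Hist1h4i had 2, 0 and 2 counts and Hist1h4h had 1, 0 and 1, so both H4 genes with counts were at 0 in replicate 3.

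The level of every gene was compared with 1 TPM by limma on log2(TPM + 0.1), among genes with 3 or more counts over the 3 libraries. Over all 14282 genes tested, 43.1% lay above 1 TPM and 8.31% below it at an adjusted p (Benjamini-Hochberg) under 0.05. Only 5 replication-dependent genes had enough counts to enter (Hist1h1c, Hist2h2aa2, Hist1h4i, Hist1h2bc and Hist3h2ba), and none of the 5 was placed above or below 1 TPM, nor at an unadjusted p under 0.05. Hist2h2aa2 had the highest mean, 2.91 ± 2.78 TPM (SD, n = 3), with an adjusted p of 0.917 (limma). On leaving out the library in which they had no count, 2 genes passed. These were Hist2h2aa2 without replicate 1 (log2 level 1.97 ± 0.487 SE, adjusted p 0.000144, limma) and Hist1h4i without replicate 3 (0.90 ± 0.343 SE, adjusted p 0.0498, limma). Dropping the library at 0 raises the level by construction. The 2 libraries left held 4 and 2 counts of Hist2h2aa2, and 2 and 2 of Hist1h4i. With so few libraries, the scatter in the test comes mostly from other genes, so no level above 1 TPM is read from these fits.

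All 8 variants had counts in each of replicates 1, 3 and 4, 751 in all. The class held 392, 175 and 184 counts, a share of 0.0121% ± 0.00385 of all counts (SD, n = 3). Per base of exon, the variants had 42.8-fold the counts of the replication-dependent genes in replicate 1 (exact 95% interval 27.6 to 69.9). The ratio was 36.5-fold in replicate 3 (19.9 to 74.4) and 46.8-fold in replicate 4 (24.1 to 104.1). The 3 intervals overlap, and the pooled ratio was 42.0 (30.6 to 59.0). All these ratios use annotated exon lengths. Hist4h4, for instance, has 2515 annotated bases after the stop codon, with its stem-loop match 54 bases after the stop. By contrast, 15 replication-dependent models end within 10 bases of the stop codon. The density of the class depends on these lengths. The plot of own-strand counts shows every histone gene with a count.

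**Figure D1:**
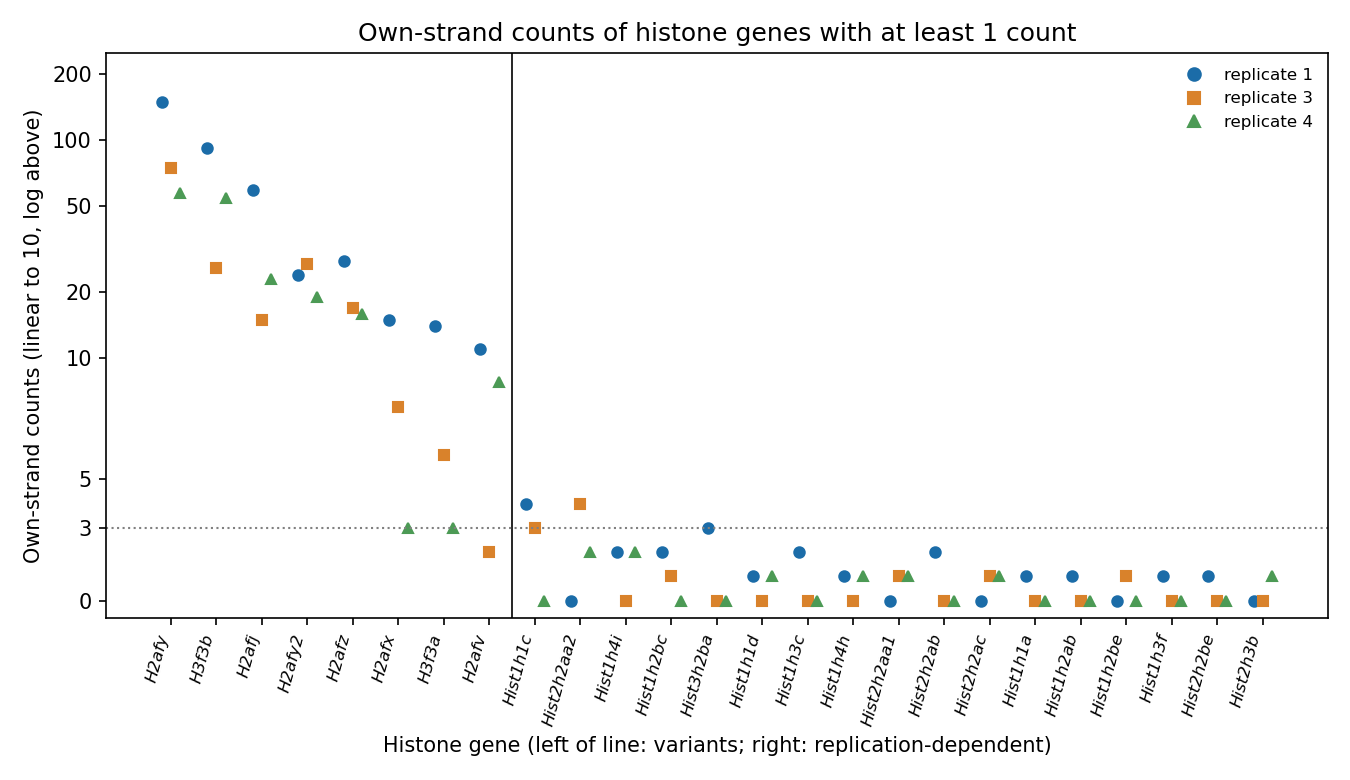
Own-strand counts of the 25 histone genes with at least 1 count in replicates 1, 3 or 4 (vertical axis, linear to 10 and logarithmic above, with the 3-count floor dotted; one marker per library). Variants (left) reach up to 149 counts, whereas no replication-dependent gene exceeds 4 in a library.

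H3.3, the H3 variant whose deposition is not tied to S phase, is encoded by H3f3a and H3f3b, whose proteins are identical. H3f3b (chr11:116021912-116027962, minus strand) had 92, 26 and 54 counts in replicates 1, 3 and 4, or 18.5, 6.38 and 15.3 TPM, and its mean of 13.4 ± 6.29 TPM (SD, n = 3) was the highest of the rule. It lay above 1 TPM (adjusted p 0.000198, limma). H3f3a (chr1:180800832-180813943, minus strand) had 14, 6 and 3 counts, or 1.45 ± 0.853 TPM, and could not be placed on either side of 1 TPM (adjusted p 0.571, limma). The 2 genes did not overlap in TPM, as the highest value of H3f3a was 2.39.

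The H2A variants spanned a wider range of roles, with mean levels from 3.19 TPM (H2afv) to 12.0 TPM (H2afj). H2afj (chr6:136808244-136810074, plus strand), a mammalian H2A variant close to the standard protein, had 59, 15 and 23 counts, a mean of 12.0 ± 6.76 TPM (SD, n = 3; adjusted p 0.00031, limma). H2afy and H2afy2 encode the macroH2A proteins, which carry a large extra domain and are associated with silent chromatin. H2afy had 149, 74 and 57 counts (9.36 ± 3.26 TPM), the most counts of the rule but spread over 6809 exonic bases, and H2afy2 had 24, 27 and 19 (7.68 ± 1.26 TPM). Both lay above 1 TPM (adjusted p 9.98e-05 and 7.71e-05, limma).

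H2afz and H2afv encode the H2A.Z proteins, found at promoters and replaced by dedicated remodellers. H2afz had 28, 17 and 16 counts, or 8.01 ± 1.28 TPM (SD, n = 3; adjusted p 6.29e-05, limma), with little spread between libraries. H2afv had 11, 2 and 9 counts, or 3.19 ± 2.01 TPM. It was not placed above 1 TPM (adjusted p 0.0883, limma), but was without replicate 3, its lowest library (adjusted p 0.000135, limma). H2afx, phosphorylated beside DNA breaks, had 15, 8 and 3 counts, or 4.18 ± 2.33 TPM (adjusted p 0.0129, limma).

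In all, 6 of 8 variants lay above 1 TPM, against 43.1% of all genes tested, and 2 were not placed. In order of mean TPM the variants ran H3f3b, H2afj, H2afy, H2afz, H2afy2, H2afx, H2afv and H3f3a. Neighbours in this order had overlapping ranges over the 3 libraries with 1 exception: the lowest value of H2afy2 (6.61 TPM) was just above the highest of H2afx (6.49). With replicate 2 added to the fit, none of the 8 variants and only 1894 of all genes were placed above 1 TPM.

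Differences between libraries were tested for the 5 members with a mean count of 10 or more (H2afy, H3f3b, H2afj, H2afy2 and H2afz) with edgeR's quasi-likelihood test of each library against the other 2. The share of all 6922 genes called was 0.0289% for replicate 1, 15.2% for replicate 3 and 0.0433% for replicate 4. Of the 5 members, H3f3b alone was called, in replicate 3 alone, at 13.5 CPM against 38.5 and 31.5 (log2 fold change -1.25 ± 0.388 SE, adjusted p 0.0162). H2afj was not called in replicate 3 (log2 fold change -1.18 ± 0.501 SE, adjusted p 0.0909). DESeq2 did not call H3f3b (adjusted p 0.398), and neither did edgeR without the filter on low counts (adjusted p 0.0705). Such a test compares libraries, and 1 of 5 members called is near the background of replicate 3.

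The levels above are those of the annotated strand. Many histone genes also carry a second annotated gene on the other strand, and 28 such pairs with at least 1 shared exonic base exist for the rule. All 18 replication-dependent H2A genes appear in these pairs, whereas the variants H2afz, H2afv, H2afy and H3f3b have no opposite-strand gene. In 19 pairs the opposite gene is a single-exon model of 129 to 144 bases, annotated as a microRNA gene, overlapping the coding sequence of an H2A gene. All but Gm44390, which runs past the end of the coding sequence of Hist1h2ah, lie wholly inside it. Such windows sit in H2afj, in H2afx and in 17 replication-dependent H2A genes. They start at base 204 or at base 246 of the coding sequence, counted from the A of the start codon, and the stretch of 99 coding bases common to all 19 was 91.9% to 97.0% identical to that of H2afj in the replication-dependent genes and 96.0% in H2afx.

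Of the windows, 5 cover the same coding bases (204 to 344), so they can be set side by side. The 4 printed here show how alike the variant and replication-dependent sequences are where the counts differ. They read 5′ to 3′ on the strand of the window, opposite to the histone gene, in mm10 (GENCODE vM21 transcripts). Capitals mark bases that differ from the window in H2afj, which is in lower case throughout.
Gm44364 in H2afj, chr6:136808543-136808683, minus strand: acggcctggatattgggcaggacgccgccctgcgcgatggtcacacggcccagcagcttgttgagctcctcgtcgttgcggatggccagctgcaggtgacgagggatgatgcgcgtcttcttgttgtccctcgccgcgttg
Gm44335 in H2afx, chr9:44334965-44335105, minus strand: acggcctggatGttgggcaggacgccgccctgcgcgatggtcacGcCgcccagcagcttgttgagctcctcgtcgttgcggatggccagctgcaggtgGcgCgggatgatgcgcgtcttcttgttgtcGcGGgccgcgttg
Gm44297 in Hist1h2af, chr13:23534114-23534254, minus strand: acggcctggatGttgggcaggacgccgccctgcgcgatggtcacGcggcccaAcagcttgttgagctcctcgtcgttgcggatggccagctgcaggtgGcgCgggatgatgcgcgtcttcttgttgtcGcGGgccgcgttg
Gm44492 in Hist2h2ac, chr3:96220501-96220641, plus strand: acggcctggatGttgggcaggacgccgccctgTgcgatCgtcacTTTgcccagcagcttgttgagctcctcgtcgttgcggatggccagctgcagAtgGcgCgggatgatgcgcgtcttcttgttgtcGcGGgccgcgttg

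The windows in H2afx and in Hist1h2af each differ from that in H2afj at 8 of 141 bases, and the window in Hist2h2ac at 12. Their counts differed far more. Gm44364, in H2afj, had 3346, 2230 and 2111 counts in replicates 1, 3 and 4, and 3 in replicate 2. Gm44335, in H2afx, had 1433, 849 and 788, and 1 in replicate 2. Gm44297, in Hist1h2af, had 0, 1 and 2, and Gm44492, in Hist2h2ac, had 2, 3 and 11. The lowest value in a variant window was thus 788, and the highest in the other windows just named was 11.

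Together the windows in the 2 variants held 10757 counts, and the 17 windows in replication-dependent genes held 316. Of these 17, 6 had no count, 6 had 10 or more in total, and the median was 3. Gm44313, inside Hist3h2a, led them with 66, 39 and 45 counts, 150 of their 316. Gm44454 in Hist1h2ak followed with 20, 9 and 12, and Gm44394 in Hist1h2ae had 11, 12 and 12. Both windows in variants exceeded each window in a replication-dependent gene in every library, as the plot of window counts shows.

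**Figure D2:**
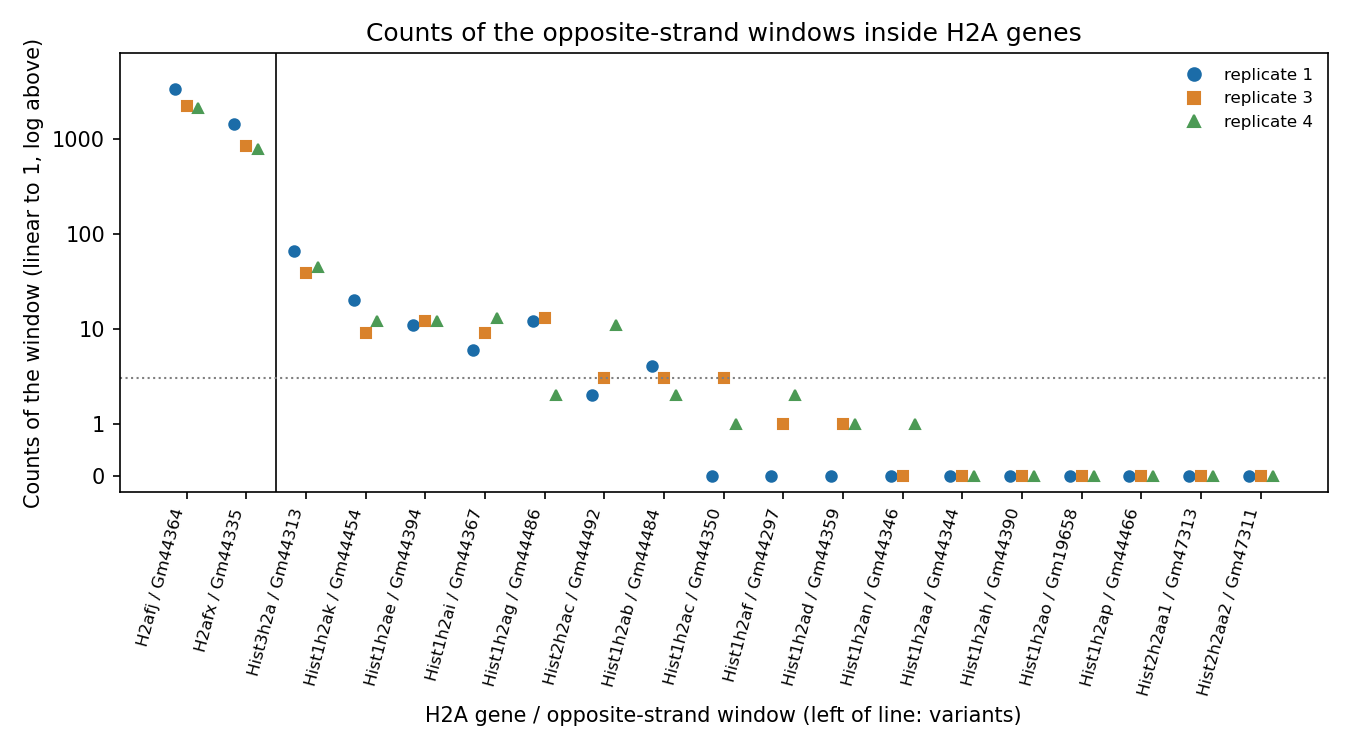
Counts of the 19 opposite-strand windows inside H2A genes (vertical axis, linear to 1 and logarithmic above, with the 3-count floor dotted; one marker per library, windows in variants at left). The windows in H2afj and H2afx hold 788 to 3346 counts per library, and the highest in a replication-dependent gene is 66.

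Each protein-coding gene was compared with its opposite-strand gene by the log2 ratio of (count + 0.5) per base, using limma over the 4421 pairs in the annotation with 10 or more counts. Over all of them, the protein-coding gene was lower in 60.3% and higher in 28% at an adjusted p under 0.05. Of the 15 histone pairs tested, the histone gene was lower in 13 and higher in 1, and 1 was not called. This tally is a description only, because the filter shaped it. The 10 pairs of replication-dependent genes held 0 to 2 counts in the histone gene and entered only through their opposite gene. A result of lower was thus largely built in. In 7 of them the histone gene had 0 counts, and its ratio is then set by the added 0.5. The 5 pairs of variants, in which the histone gene had 23 or more counts, came out as 3 lower, 1 higher and 1 not called.

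The other 13 histone pairs held too few counts to be tested. Among them were genes with more counts than their partners: Hist2h2aa2 had 6 counts over the 3 libraries against 2 in Gm20632 and 0 in Gm47311, and Hist2h2aa1 had 2 against 0 in Gm20633 and 0 in Gm47313. Outside the rule, 52 pairs with a microRNA-annotated opposite gene were tested under the same filter. The protein-coding gene was lower in 47 of them, with a median log2 ratio of -7.46. The plot of pair ratios sets the histone pairs under the distribution of all pairs.

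**Figure D3:**
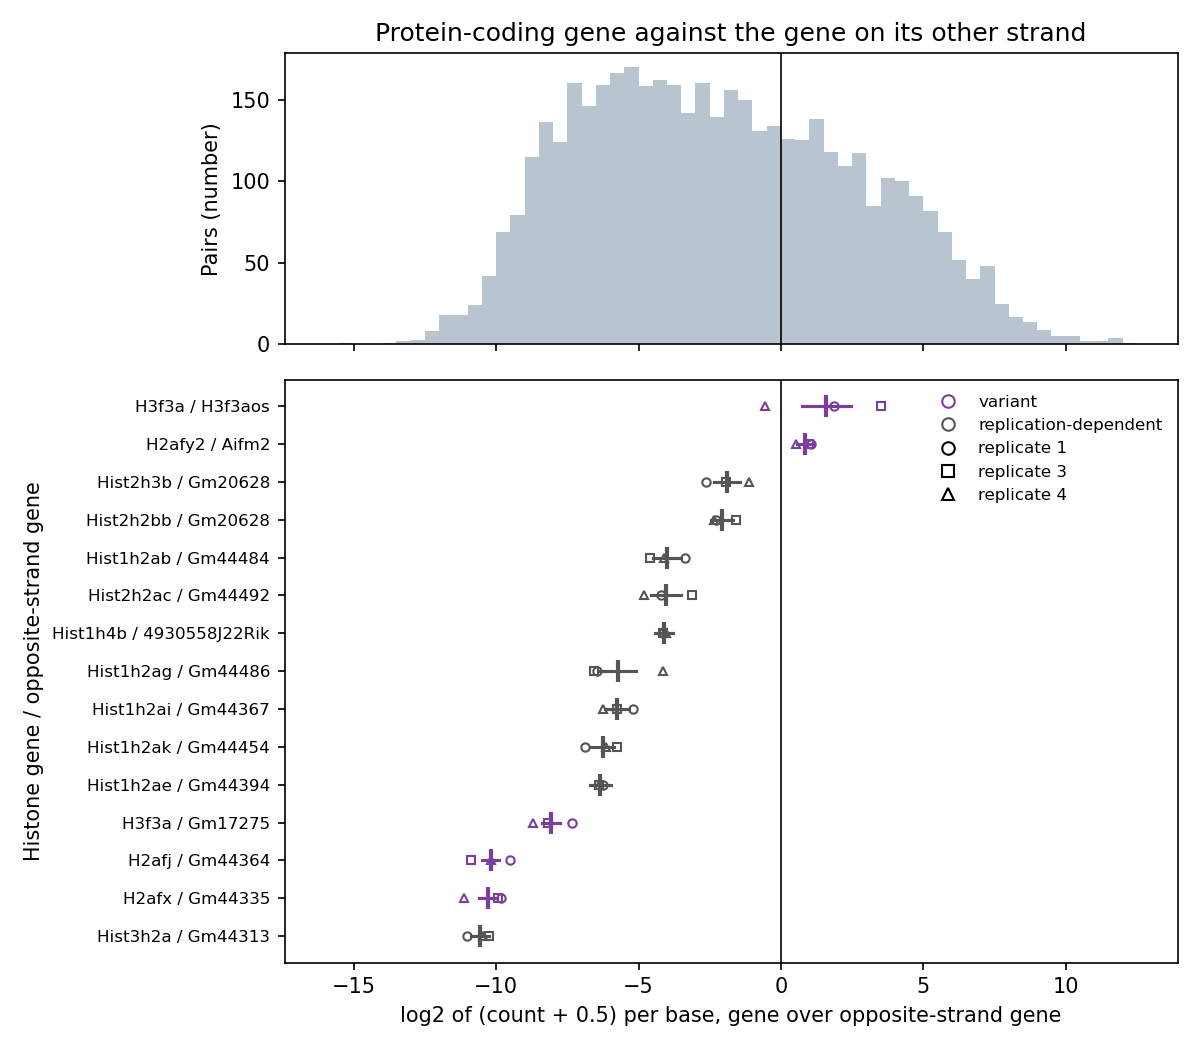
Log2 ratio of (count + 0.5) per base of a protein-coding gene over its opposite-strand gene, for all 4421 pairs tested (top, number of pairs per bin of 0.5) and for the 15 histone pairs (bottom, with one open marker per library, the mean as a tick and its SE as a line). The pairs of H3f3a with Gm17275, H2afj and H2afx lie at -8.07, -10.19 and -10.29. The 7 pairs whose histone gene has 0 counts are placed by the added 0.5. The other replication-dependent pairs, with 1 or 2 counts in the histone gene, depend on it as well.

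Among variants, the own-strand density of H2afj was 0.0972% of that of Gm44364 (log2 ratio -10.19 ± 0.304 SE, adjusted p 3.28e-05, limma). That of H2afx was 0.0863% of Gm44335 (-10.29 ± 0.322 SE, adjusted p 3.39e-05, limma). Both windows are 141 bases long, against 1831 and 1384 exonic bases in H2afj and H2afx. A fragment can reach beyond so short a model and still be counted there, so the window density per base may be too high. Fragment length was not taken into account. H3f3a shares 638 exonic bases with the long noncoding RNA gene Gm17275, which had 1704, 1358 and 1070 counts, and stood at 0.405% of its density (-8.07 ± 0.314 SE, adjusted p 3.93e-05). The ratio of H3f3a to a second opposite gene, H3f3aos, which had 3, 0 and 4 counts, was not called (1.59 ± 0.870 SE, adjusted p 0.145, limma). Without replicate 4, the library with the lowest ratio, H3f3a was higher (2.67 ± 0.659 SE, adjusted p 0.0285, limma).

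The single histone gene above its partner was H2afy2, which shares 233 exonic bases with Aifm2, a flavoprotein gene. H2afy2 had 24, 27 and 19 counts and Aifm2 had 22, 26 and 25 over an exonic length that is longer, giving a log2 ratio of 0.85 ± 0.301 SE (adjusted p 0.0473, limma). The call was lost on leaving out any 1 of replicates 1, 3 and 4, with adjusted p from 0.105 to 0.162.

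For the replication-dependent genes the values describe the opposite gene more than the histone gene. Hist3h2a had 0 counts in each library, and with 3 counts as its floor over the annotated exons, the density of its window was at least 778-fold higher. The same bound was at least 26.6-fold for Hist1h2ai, 31.6-fold for Hist1h2ag, and 38.9-fold for Hist1h2ak and Hist1h2ae. For Hist3h2a the floor is spread over 2146 annotated bases, 1700 of them after the stop codon. Its stem-loop match lies 41 bases after the stop, and an mRNA ending there would give a smaller bound. The limit given above for densities of short windows holds for all these bounds. Hist2h2ac and Hist1h2ab, with 2 and 1 counts, had log2 ratios of -4.04 ± 0.519 SE and -4.02 ± 0.491 SE. With 1 added to the counts in place of 0.5, these ratios were -3.61 and -3.41.

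Replication-dependent genes of other types had opposite-strand genes too, none of them a microRNA model. Hist1h4b had 0 counts, while its antisense gene 4930558J22Rik had 24, 24 and 22, a density at least 8.43-fold higher. Gm20628, an antisense gene over both Hist2h3b and Hist2h2bb, had 20, 12 and 21 counts, and these genes had 1 and 0. Hist2h3b had a log2 ratio of -1.89 ± 0.444 SE. For Hist2h2bb, at 0 counts, the density of Gm20628 was at least 2.09-fold higher. The pairs of Hist1h4b, Hist2h3b and Hist2h2bb entered only through their opposite gene, which tilts them toward lower, so no call is read from them. The pair of Hist2h3b was not called without replicate 1 (adjusted p 0.0561, limma). With all 4 libraries none of these pairs was called (adjusted p 0.0752 to 0.528, limma). Since the 2 pairs with Gm20628 share the same antisense gene, they are not separate observations.

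How far these sequences can be told apart was read from the annotation. A 50-base stretch was called shared when a transcript of a gene at another place held it on either strand, and how fragments with several matching places were handled is not stated beyond the counting options. The median share of such stretches was 49.3% in replication-dependent genes and 6.41% in variants, in which it ran from 0% to 35.4% (H2afz). Of the 35 replication-dependent genes with under 50% shared, 22 had 0 counts, as did 26 of the 30 with more. The stretches were taken from all GENCODE vM21 transcripts, which can be longer than the exons counted. Hist1h2ac, for instance, had 2433 distinct stretches, 14.1% of them shared, but 476 counted bases. The share within the counted exons alone was not computed, so a gene in the lower group may be mostly shared where it was counted. Of the 11 with under 10% shared, 7 had 0 counts, among them Hist1h1b, Hist2h4, Hist4h4 and Hist3h2a. The models of Hist2h4, Hist4h4 and Hist3h2a run on for 1311, 2515 and 1700 bases after the stop codon. The share up to the stem-loop alone was not computed.

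The windows can be read the same way. Of the 17 in replication-dependent genes, 11 were wholly shared and held at most 35 counts each. The window in Hist1h2af shared 45.7% and had 3 counts, and that in H2afx shared 48.9% and had 3070. Gm44313 in Hist3h2a shared 47.2% and had 150. The window with the smallest share, Gm44364 in H2afj at 4.35%, had the most counts, 7687, whereas Gm44344 in Hist1h2aa at 8.75% had 0 and Gm44492 in Hist2h2ac at 16.3% had 16. The part that multiple matches play in these counts was not tested.

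**Figure D4:**
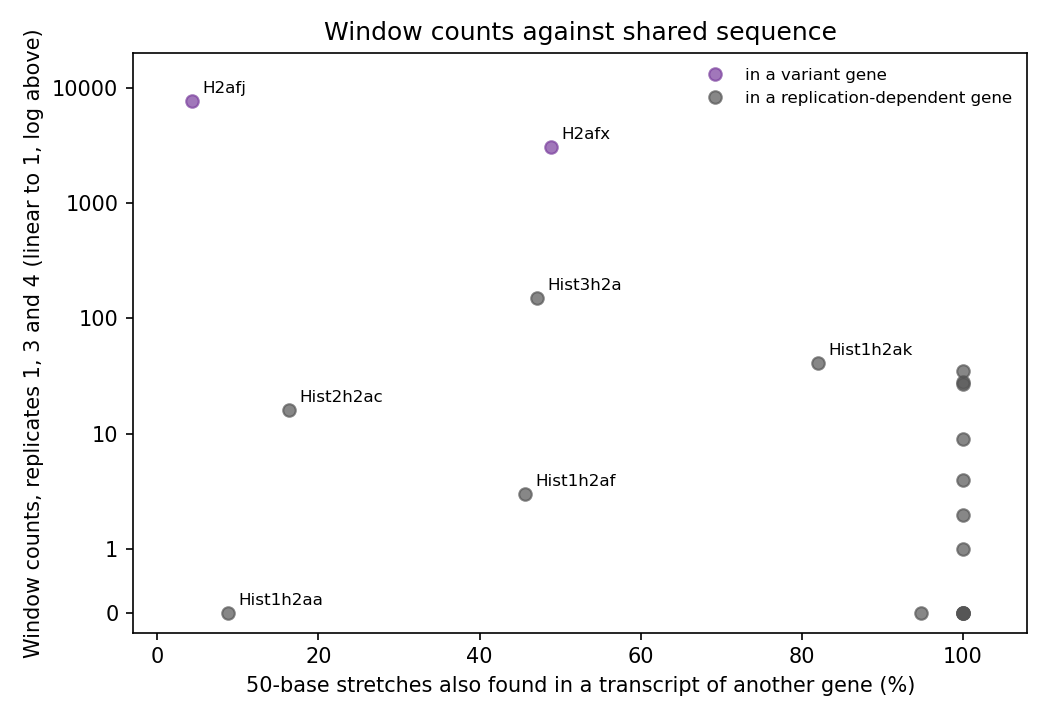
Counts of each opposite-strand window over replicates 1, 3 and 4 (vertical axis, linear to 1 and logarithmic above) against the percentage of its 50-base stretches also found in a gene elsewhere (horizontal axis). At 45.7% to 48.9% shared, the windows in Hist1h2af, Hist3h2a and H2afx hold 3, 150 and 3070 counts.

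Genes that serve histones were counted on the same strand and with the same test. Of 12 genes for processing the ends of histone mRNAs, 4 lay above 1 TPM and none below, where 43.1% and 8.31% of all genes tested did. These were Cpsf2 (18.2 ± 1.98 TPM, SD, n = 3) and Cpsf3 (5.55 ± 2.85 TPM), subunits of the cleavage complex, Srrt (10.6 ± 4.23 TPM) and Casp8ap2 (3.20 ± 1.31 TPM), a histone locus protein. Slbp, named here after its values were seen, had 27, 11 and 18 counts (2.16 ± 0.731 TPM) and was not called (adjusted p 0.0797, limma). Slbp shares exons with Gm10459 on the other strand.

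Of 20 histone chaperones and deposition factors, 9 lay above 1 TPM and none below, a share near the background of 43.1% above. Supt16 (31.5 ± 2.00 TPM) and Ssrp1 (18.5 ± 9.35 TPM) form the FACT complex, Chaf1a (19.8 ± 5.15 TPM) loads new H3 and H4 at replication forks, and Anp32e (19.5 ± 7.58 TPM) removes H2A.Z. The others were Rbbp7, Asf1a, Nasp, Hat1 and Daxx. Of the called genes, Supt16, Ssrp1, Chaf1a, Asf1a and Rbbp7 share exons with Rpgrip1, P2rx3, Ubxn6, Mcm9 and Txlng on the other strand. Which strand their counts came from was not tested. Of 8 histone genes outside the rule, 4 had no count, where 41.4% of all protein-coding genes had none. Of the 4 tested, 3 were not called and 1 lay above 1 TPM, against 43.1% of all genes tested. That gene was H1f0, the linker histone of resting cells, at 28.7 ± 11.4 TPM from 158, 60 and 69 counts.

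Replication genes were present in the same libraries as the near-empty replication-dependent histones. Of 18 S phase genes 13 lay above 1 TPM and none below, against 43.1% and 8.31% of all genes tested. Ccna2 reached 137 ± 3.39 TPM and Ccne2 64.5 ± 2.48 TPM, both cyclins, but these share exons with Exosc9 and Ints8 on the other strand, and which strand their counts came from was not tested. Among those with no opposite-strand gene, Pcna, the sliding clamp of DNA polymerase, had 85, 32 and 73 counts (18.9 ± 8.22 TPM), and Mki67, a marker of cycling cells, had 258, 83 and 176 (12.0 ± 5.22 TPM). In replicates 1, 3 and 4, each of these 2 genes alone thus had more counts than the 65 replication-dependent histone genes together.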

How the data were processed

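RNA of Th2 cells was sequenced in 4 libraries of 1 group. The deposited values are raw fragment counts per gene, which the authors obtained by running featureCounts (1.4.6-p4) on STAR alignments (mm10) over GENCODE vM13 exons. Both mates had to map and the strand option was 1, per the file headers. No source used here states the version of STAR. Gene symbols came from GENCODE vM21, and 224 of 50600 identifiers had none. TPM used these counts and the exonic length of each gene in the files. Levels and pair ratios were tested with limma 3.58.1 (intercept only, trended prior), and libraries with edgeR 4.0.16 (TMM) in R 4.3.3. DESeq2 1.42.0 was an alternative. P-values were Benjamini-Hochberg adjusted over all genes or pairs tested. Opposite-strand exons were found with bedtools 2.31.1, and sequences were read with Python 3.11.15 and pandas 2.3.3. The tests were run on simulated counts with less scatter between libraries than in these data. That checks the code, not the error rates here. The genes named are the members with an opposite-strand gene or 10 or more counts, up to 4 others per type, and the leading or called genes of each list. The members and lists were chosen with earlier results of these data known. The replication-dependent and variant classes were described without a test.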

Additional observations from a re-analysis of the deposited data

How the results depend on the processing

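Replicate 2 was too shallow to be useful: with it, genes above and below 1 TPM numbered 1894 and 1876 against 6155 and 1187, variants above 0, replication-dependent genes below 1, the log2 level of H3f3a was -0.60, histone genes above their partner 0, and the variant minus replication-dependent difference in median log2(TPM + 0.1) 4.62 against 6.16. That difference was 3.01 with a pseudocount of 1 and 6.62 on CPM, because the replication-dependent median is 0 TPM. Genes below 1 TPM numbered 2273 with a pseudocount of 1, 2854 without a filter (3 of them replication-dependent histones) and 20 to 363 on leaving out 1 replicate. Replication-dependent genes above 1 TPM numbered 0 to 1 on leaving out 1 replicate: 1 without replicate 1 and 1 without replicate 3. The log2 level of H3f3a against 1 TPM then ran from -0.062 (without replicate 1) to 0.74. With an overlap of at least 50% of the smaller gene, pairs numbered 497 lower and 114 higher, with 0 histone genes higher. Histone genes higher numbered 0 to 1 on leaving out 1 replicate: 0 without replicate 1 or 3, and 1, H3f3a over H3f3aos, without replicate 4. For replicate 3 DESeq2 called 56 genes against 1051 and 0 histone or opposite genes, as did edgeR without a filter (0). DESeq2 called 0 genes for replicate 4, and edgeR without a filter 1 for replicate 1. The cause was not tested. No paired analysis was possible because all libraries belong to 1 group. Depth limits the replication-dependent genes, whose values lie mostly at or under 3 counts.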

Other observations

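Genes next to the rule were looked at by their own-strand counts. Of 8 annotated histone pseudogenes whose symbols would fit it, 7 had no count in replicates 1, 3 and 4. The exception was H2afy3, a processed pseudogene on chromosome 15, with 9, 5 and 13 counts. The 3 X-linked H2afb genes had 0. The identifier ENSMUSG00000096807.1, which had no symbol in GENCODE vM21 and so was no member, lies within the histone cluster of chromosome 13 (chr13:21722098-21722478, plus strand, mm10) and had 2, 0 and 1 counts. Among the genes outside the rule with a stem-loop match after the stop codon was H2bfm, an X-linked H2B gene with no count here.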
